A study of Mus musculus with 6 samples.

Results

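The 10 genes described here encode the interleukin 1 agonists Il1a and Il1b, the related cytokine Il18, the receptor antagonist Il1rn, the decoy receptor Il1r2, the signalling receptor Il1r1 with its accessory chain Il1rap, and the inflammasome components Nlrp3, Pycard and Casp1. They were taken by symbol from a count table of 55487 genes, and all 10 were among the 15774 genes left after a filter on low counts. The libraries are RNA-seq profiles of Ly6G-positive neutrophils sorted from perfused, liberase-digested mouse lung. The 3 mutant libraries came from Mrp8-Cre;TGFbR2-fl/fl mice, which carry loxP-flanked Tgfbr2 and the transgene S100A8-cre,-EGFP, whose promoter is active in neutrophils and their precursors. The 3 wt libraries came from Cre-negative TGFbR2-fl/fl littermates, so that the loxP-flanked allele is shared by all 6 libraries while Cre and EGFP are not. The transgene came from a B6.Cg stock and the loxP-flanked allele, Tgfbr2tm1Karl/J, from a B6;129 stock. The labels used here state neither age nor sex. The comparison addresses what lung neutrophils transcribe when the type II receptor for TGF-beta is targeted.

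Interleukin 1 alpha and interleukin 1 beta bind the receptor encoded by Il1r1, which then recruits the accessory chain encoded by Il1rap and signals through MyD88 to NF-kB. Il1rn encodes a secreted or intracellular protein that occupies the same receptor without recruiting the accessory chain, and Il1r2 encodes a receptor that binds the ligand but lacks the intracellular signalling domain. The precursors of interleukin 1 beta and interleukin 18 are cut by caspase 1 (Casp1), which the sensor NLRP3 activates through the adaptor ASC (Pycard), whereas the interleukin 1 alpha precursor is already active. Neutrophils are known as a source of interleukin 1 beta and as carriers of the decoy receptor at inflamed sites.

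Library totals were 30403494 to 35906780 counts. A gene with 3 counts in a library stands at 0.0829 to 0.102 CPM (read counts divided by the TMM-adjusted size of their library), and such floors cover counting error only. The design text states 3 mice per group, but no label ties a library to 1 mouse, so a p-value reflects library-to-library spread, which may be technical. Tgfbr2 (ENSMUSG00000032440.13, chromosome 9, 116084293 to 116175360 in GRCm38, minus strand) was at 176, 205 and 181 CPM in mutant and 186, 185 and 201 CPM in wt libraries. Its count pools all exons of the gene, so it does not check the deletion or the labels. Of 8 neutrophil markers, Csf3r, Cxcr2, Mmp9 and S100a8 were at 966 CPM or more in every library. Cxcr2 and S100a8, however, were lower in every mutant library than in any wt library. The lowest library was at 637 CPM for S100a9, 837 CPM for Mmp8 and 226 CPM for Retnlg, in each case a mutant library. Ly6g, the gene of the sorted surface protein, averaged 21.1 CPM in mutants and 26.1 CPM in wt.

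Among the 10 genes, edgeR's quasi-likelihood test over all genes called 0 higher and 0 lower at the 0.05 threshold on the adjusted p. Over all tested genes that rule took 0.00634% as higher and 0% as lower. At an unadjusted p under 0.05 edgeR had 3 of the 10 higher (Il1a, Il1r2 and Il1rn) and 0 lower, where the same rule took 3.51% of all tested genes as higher and 3.22% as lower. In 4 of the 10 (these and Pycard) every mutant library was above every wt library, and in 0 every one was below, against 6.82% and 6.21% of all tested genes. The log2 fold change was positive for 6 of the 10 and negative for 4, against 50.7% and 49.3% of all tested genes, and its median was 0.18 over the 10 genes and 0.01 over all tested genes. DESeq2's Wald test called 2 of the 10 higher, Il1a and Il1r2, and 0 lower, with 0.481% of its tested genes higher and 0.427% lower. By limma-voom 0 of the 10 were called in each direction, with 0.00634% of all tested genes higher and 0% lower.

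The bases before the start sites are shown for Il1a, Il1r2 and Il1rn, the 3 genes with an unadjusted p under 0.05, and for Il1b, the neighbour of Il1a whose groups overlapped. The sequences are the 250 bases upstream of a RefSeq start in GRCm38.p6, written 5′ to 3′ on the strand of the gene, with matches to 4 motifs in capitals. Il1a is at chr2:129309973-129310222 on the minus strand, Il1b at chr2:129371140-129371389 on the minus strand, Il1r2 at chr1:40085843-40086092 on the plus strand, inside the wider GENCODE gene, and Il1rn, at the first of its 3 RefSeq starts, at chr2:24336610-24336859 on the plus strand.
Il1a: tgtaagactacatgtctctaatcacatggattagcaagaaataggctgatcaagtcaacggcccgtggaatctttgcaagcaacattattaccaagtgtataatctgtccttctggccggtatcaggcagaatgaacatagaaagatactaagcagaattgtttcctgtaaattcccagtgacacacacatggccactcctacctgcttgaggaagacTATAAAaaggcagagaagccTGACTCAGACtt
Il1b: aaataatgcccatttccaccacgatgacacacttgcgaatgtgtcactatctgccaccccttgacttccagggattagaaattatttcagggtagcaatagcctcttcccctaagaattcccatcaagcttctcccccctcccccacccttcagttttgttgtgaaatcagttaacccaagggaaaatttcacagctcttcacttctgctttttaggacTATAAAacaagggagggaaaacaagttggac
Il1r2: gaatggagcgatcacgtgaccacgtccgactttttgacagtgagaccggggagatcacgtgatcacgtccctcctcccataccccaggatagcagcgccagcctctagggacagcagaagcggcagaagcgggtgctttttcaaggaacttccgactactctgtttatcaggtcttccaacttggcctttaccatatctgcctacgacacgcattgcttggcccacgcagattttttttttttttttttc
Il1rn: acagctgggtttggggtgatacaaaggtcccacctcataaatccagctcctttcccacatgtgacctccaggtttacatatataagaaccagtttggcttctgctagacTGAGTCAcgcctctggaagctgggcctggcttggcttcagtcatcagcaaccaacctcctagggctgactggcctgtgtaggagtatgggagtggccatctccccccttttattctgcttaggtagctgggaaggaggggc

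The motifs in capitals are the AP-1 site TGANTCA, the SMAD box CAGAC, the TATA box TATAAA and the kappa B consensus, each searched on both strands. Il1a and Il1b each held TATAAA, which ends 27 bases before the start in Il1a and 26 in Il1b, and 12.4% of the 32851 RefSeq windows of the same length held it. AP-1 letters occurred in the windows of Il1a, directly before the start, and of Il1rn, against 6.75% of all windows. In Il1a they overlap a SMAD box, letters that 42.2% of all windows hold. The kappa B consensus, held by 3.90% of all windows, was not among the letters of these 4 windows, and the Il1r2 window held 0 of the 4 motifs. Over all 14 RefSeq windows of the 10 genes, AP-1 letters were in 2, TATAAA in 3, a SMAD box in 7 and the kappa B consensus in 2. The other 2 windows of Il1rn overlap each other and held the same SMAD box, which is counted in both, and no AP-1 letters. In Il18 the TATAAA lay on the other strand and ended 170 bases before the start. The window of Pycard held 0 of the 4 motifs. A match is a description of the letters, and binding was not measured.

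Per unit of exonic length, the 10 genes spanned a wide range of RNA levels. Il1b led all 15774 tested genes at 6932 ± 1086 RPKM (CPM per exonic kilobase) in mutants and 7210 ± 137 RPKM in wt (n = 3, SD), and its reads were 1.12% to 1.42% of all counts in mutant libraries and 1.35% to 1.40% in wt libraries. The decoy receptor gene Il1r2 was 8th of all tested genes, at 3759 ± 315 RPKM in mutants and 2707 ± 353 RPKM in wt. The antagonist gene Il1rn followed at 336 ± 39.8 RPKM in mutants and 246 ± 35.7 RPKM in wt, and the inflammasome sensor gene Nlrp3 at 121 ± 12.1 RPKM in mutants and 114 ± 8.67 RPKM in wt. Below these came Il1a (47.0 ± 6.75 RPKM in mutants and 25.3 ± 5.87 RPKM in wt) and Il1rap (25.5 ± 3.07 RPKM in mutants and 30.4 ± 3.57 RPKM in wt). Casp1 was at 14.9 ± 1.61 RPKM in mutants and 16.3 ± 2.50 RPKM in wt, and Il18 at 8.50 ± 0.891 RPKM in mutants and 8.86 ± 2.65 RPKM in wt. Pycard was at 1.06 ± 0.0342 RPKM in mutants and 0.877 ± 0.0191 RPKM in wt, and Il1r1 closed the list at 0.860 ± 0.229 RPKM in mutants and 0.661 ± 0.129 RPKM in wt. Over the 6 libraries the ranges of neighbours in this order overlapped for Il1a with Il1rap and for Pycard with Il1r1, while the other neighbours were apart in every library. Without division by exonic length the order differs. By mean CPM Il1b was 3rd and Il1r2 9th of all tested genes, and Il1rap (318 CPM) stood above Il1a (71.4 CPM). Counts pool every exon of a gene, so that levels of single isoforms, such as the secreted and intracellular antagonist, are not separated here.

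**Figure D1:**
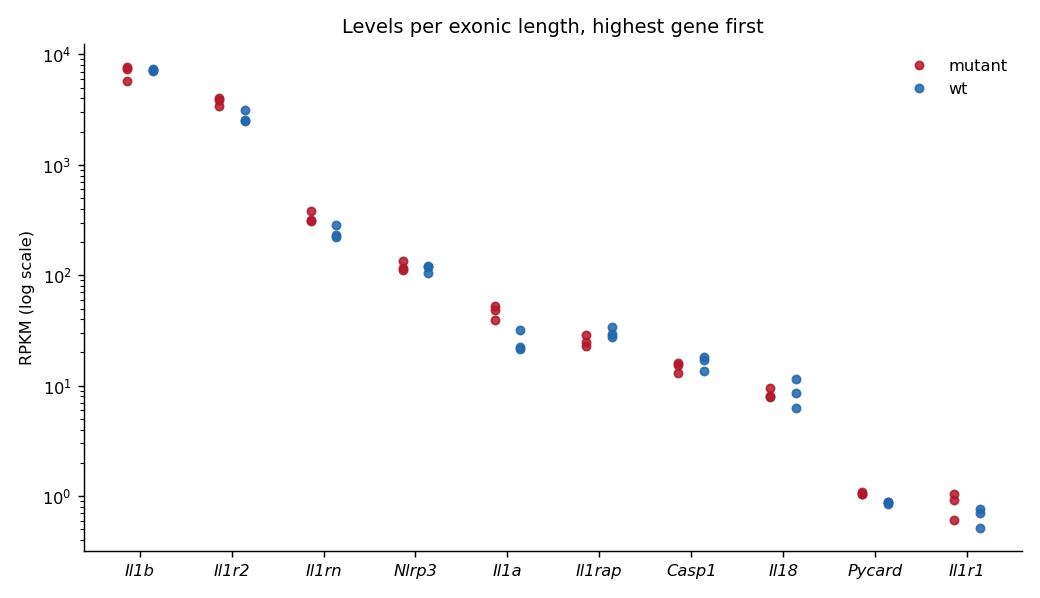
RPKM on a log scale for each of the 10 genes, ordered by the mean over 6 libraries, with mutant libraries on the left (red) and wt libraries on the right (blue) of each pair, 1 point per library. Il1b and Il1r2 lie above 2473 RPKM in every library, and Pycard and Il1r1 lie between 0.516 and 1.10 RPKM.

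Of the agonists, Il1a had higher values in every mutant library than in any wt library, while the values of Il1b overlapped. Il1a (ENSMUSG00000027399.1, chromosome 2, 129299610 to 129309972) was at 78.3, 105 and 95.2 CPM in mutant libraries and 44.5, 63.3 and 42.3 CPM in wt libraries. The lowest mutant library was above the highest wt library, and wt replicate 2 was the highest of its group. The ratio of the group means was 1.85, with a log2 fold change of 0.89 ± 0.18 (SE, 95% interval 0.49 to 1.29), an unadjusted p that ranked 29th of 15774 genes, and an adjusted p of 0.276 by edgeR. It passed with DESeq2 (adjusted p = 0.0012), with no filter on low counts (adjusted p = 0.0051, edgeR) and when only genes averaging 10 CPM or more were tested (adjusted p = 0.046, edgeR, a rule that took 0.203% of its genes as higher and 0.0579% as lower). Leaving out 1 library at a time gave log2 fold changes of 0.78 to 1.10, with adjusted p of 0.136 to 0.666 by edgeR.

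Il1b (ENSMUSG00000027398.13, chromosome 2, 129364570 to 129371139), whose product needs cleavage to become active, was at 14143, 14667 and 10846 CPM in mutant libraries and 13552, 13651 and 14045.5 CPM in wt libraries. Mutant replicate 3 was below the other 5 libraries, which lay close together, and the groups overlapped. Its log2 fold change was -0.06 ± 0.10 (SE, 95% interval -0.29 to 0.17) with an adjusted p of 0.983 by edgeR, and the sign turned without mutant replicate 3 (0.07). The spread between libraries, a coefficient of variation of 15.7% in mutants and 1.90% in wt, was above the 0.153% that counting alone gives at this depth. Il1a and Il1b lie on the same strand, 54.6 kb apart. The test of the difference between their fold changes was not run, and their ratio within a library is given below.

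Il18 (ENSMUSG00000039217.13, chromosome 9, 50554827 to 50581840) encodes the other cytokine cut by caspase 1. It was at 9.81, 8.40 and 8.09 CPM in mutant libraries and 8.93, 12.0 and 6.50 CPM in wt libraries. All mutant values lay inside the range of the wt values. The log2 fold change was -0.06 ± 0.27 (SE, 95% interval -0.67 to 0.55, adjusted p = 0.997 by edgeR), so that a change of either sign up to about the upper and lower bounds was not separable from 0 at counts of 208 to 362 per library.

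The values of the antagonist and the decoy receptor were also higher in every mutant library than in any wt library, short of the adjusted threshold in edgeR. Il1rn (ENSMUSG00000026981.15, chromosome 2, 24336853 to 24351494) was at 1738, 1722 and 2111 CPM in mutant libraries and 1286, 1589 and 1218 CPM in wt libraries. Mutant replicate 3 was the highest library and wt replicate 2 the highest of its group. Its ratio was 1.36 and its log2 fold change 0.45 ± 0.12 (SE, 95% interval 0.18 to 0.72, adjusted p = 0.405 by edgeR). Across the 12 alternatives the log2 fold change stayed between 0.34 and 0.57 and the adjusted p between 0.087 and 0.774, so Il1rn passed in 0 of them.

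Il1r2 (ENSMUSG00000026073.13, chromosome 1, 40074079 to 40125231) was at 6516, 7302 and 7699 CPM in mutant libraries and 4836, 5941 and 4719 CPM in wt libraries. Every mutant library was above every wt library, and wt replicate 2 again was the highest of its group. The ratio was 1.39, with a log2 fold change of 0.47 ± 0.10 (SE, 95% interval 0.24 to 0.70), rank 48 by unadjusted p and an adjusted p of 0.294 by edgeR. DESeq2 (adjusted p = 0.022) and edgeR without a filter on low counts (adjusted p = 0.022, a rule that took 0.157% of its genes as higher and 0.111% as lower) called it higher, and when only genes averaging 10 CPM or more were tested edgeR's adjusted p was 0.081. With 1 library left out at a time the log2 fold change ran from 0.41 to 0.59.

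Neither of the receptor chains that signal passed the test, and their groups overlapped. Il1r1 (ENSMUSG00000026072.12, chromosome 1, 40225080 to 40317257), the neighbour of Il1r2 at a distance of 99.8 kb, had only 100 to 198 counts in a library. It was at 3.87, 6.71 and 5.84 CPM in mutant libraries and 3.28, 4.49 and 4.84 CPM in wt libraries. Mutant replicate 1 lay among the wt values. The log2 fold change was 0.38 ± 0.34 (SE, 95% interval -0.37 to 1.13, adjusted p = 0.937 by edgeR), an interval that includes both 0 and the value of Il1r2. Il1rap (ENSMUSG00000022514.14, chromosome 16, 26581704 to 26730117) was at 259.8, 282 and 328 CPM in mutant libraries and 390.2, 333 and 312 CPM in wt libraries. Mutant replicate 3 lay above wt replicate 3, so the groups overlapped by 1 library on each side. Its log2 fold change was -0.25 ± 0.12 (SE, 95% interval -0.52 to 0.03, unadjusted p = 0.070 and adjusted p = 0.789 by edgeR) and stayed negative under all 12 alternatives (-0.35 to -0.15).

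None of the 3 inflammasome genes passed in any of the settings run, edgeR, DESeq2 and limma-voom included, and 0 of the 3 had an unadjusted p under 0.05 by edgeR. Nlrp3 (ENSMUSG00000032691.14, chromosome 11, 59541568 to 59566956) was at 474, 546 and 453 CPM in mutant libraries and 423, 478 and 488 CPM in wt libraries. The groups overlapped, and the log2 fold change was 0.09 ± 0.11 (SE, 95% interval -0.15 to 0.32, adjusted p = 0.960 by edgeR). Casp1 (ENSMUSG00000025888.6, chromosome 9, 5298508 to 5307290) was at 41.0, 48.2 and 50.7 CPM in mutant libraries and 57.2, 53.9 and 42.2 CPM in wt libraries. Its groups overlapped too, with a log2 fold change of -0.13 ± 0.16 (SE, 95% interval -0.48 to 0.21, adjusted p = 0.958 by edgeR).

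Pycard (ENSMUSG00000030793.4, chromosome 7, 127989708 to 127993867), the adaptor gene, was at 4.17, 3.96 and 3.94 CPM in mutant libraries and 3.38, 3.37 and 3.25 CPM in wt libraries. All mutant values lay above all wt values, at 117 to 151 counts in mutant libraries and 102 to 104 counts in wt libraries. The spread within groups, 3.22% in mutants and 2.18% in wt, was under the 9.23% that counting alone gives at this depth, so the counts are less precise than this spread alone would show. EdgeR gave a log2 fold change of 0.27 ± 0.32 (SE, 95% interval -0.44 to 0.98, adjusted p = 0.958). The antisense gene Gm45205 overlaps Pycard and had 25.8% of its CPM, and the library protocol does not mark strand, so reads of this pair cannot be told apart where they overlap. For Il1a, Il1b and Il1rap the overlapping antisense genes had at most 4.66% of the CPM.

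**Figure D2:**
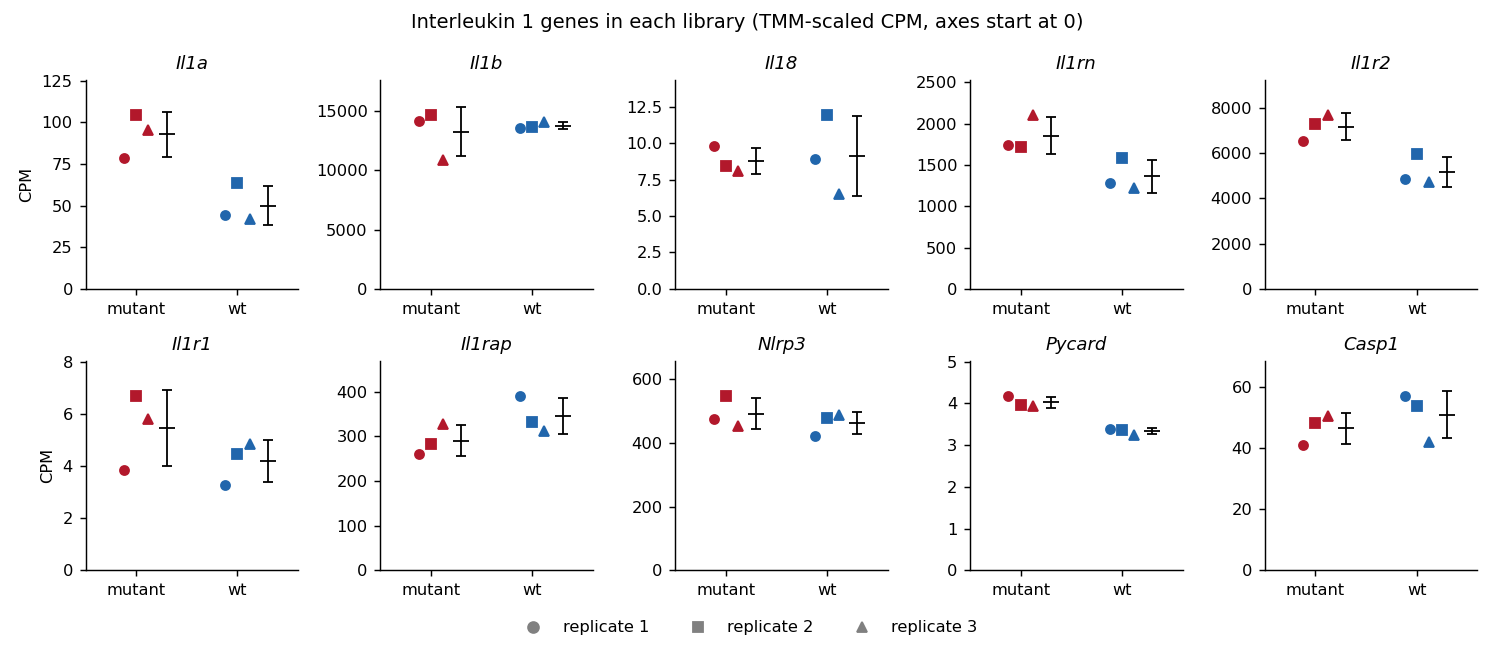
TMM-scaled CPM of each of the 10 genes in 3 mutant libraries (red, left) and 3 wt libraries (blue, right), with symbols for replicates, which are not paired, and a bar for the mean and SD of the group. The groups are apart for Il1a, Il1rn, Il1r2 and Pycard, and mutant replicate 3 is the lowest point of Il1b at 10846 CPM.

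**Figure D3:**
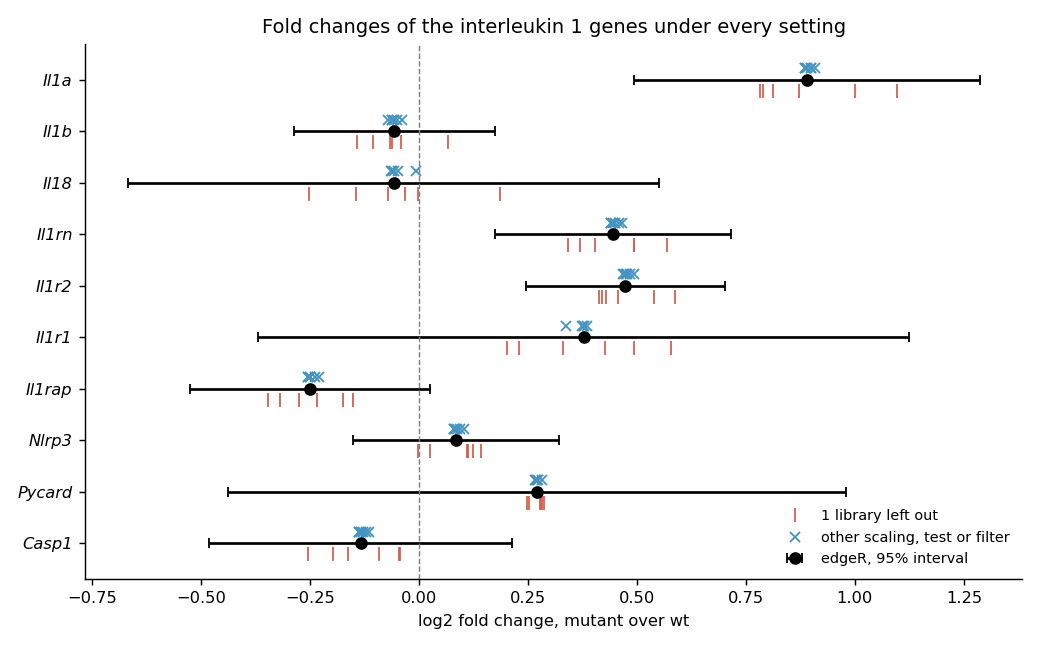
Log2 fold change of mutant over wt for each of the 10 genes, with edgeR's estimate and 95% interval (black), 6 other settings on all libraries (crosses) and 6 fits with 1 library left out (ticks). The intervals of Il1a, Il1rn and Il1r2 lie above 0, while the ticks of Il1b, Il18 and Nlrp3 fall on both sides of 0.

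Ratios within a library do not depend on the scaling of that library. They are given per exonic length and with no test, since the genes were chosen with earlier results known. The Il1a RNA per Il1b RNA was 0.0053, 0.0069 and 0.0085 in mutant libraries and 0.0032, 0.0045 and 0.0029 in wt libraries, so that Il1b exceeded Il1a by 118 to 187 times in mutants and by 223 to 344 times in wt. Il1rn per summed Il1a and Il1b was 0.0421, 0.0402 and 0.0665 in mutant libraries and 0.0326, 0.0399 and 0.0298 in wt libraries. These groups were apart only narrowly, by mutant replicate 2 and wt replicate 2. The decoy Il1r2 per summed agonists was 0.458, 0.494 and 0.704 in mutant libraries and 0.356, 0.433 and 0.335 in wt libraries, and mutant replicate 3, low in Il1b, was the highest.

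Il1r2 per Il1rap was 149, 154 and 139.6 in mutant libraries and 73.8, 106 and 90.1 in wt libraries, 1.64 times higher in mutants on average and without overlap. By contrast Il1r2 per Il1rn overlapped between groups, at 11.3 ± 0.919 in mutants and 11.0 ± 0.213 in wt (n = 3, SD). Il1r2 per Il1r1 overlapped as well, at 4547 ± 1001 in mutants and 4190 ± 853 in wt, with Il1r1 at 100 to 198 counts in a library.

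**Figure D4:**
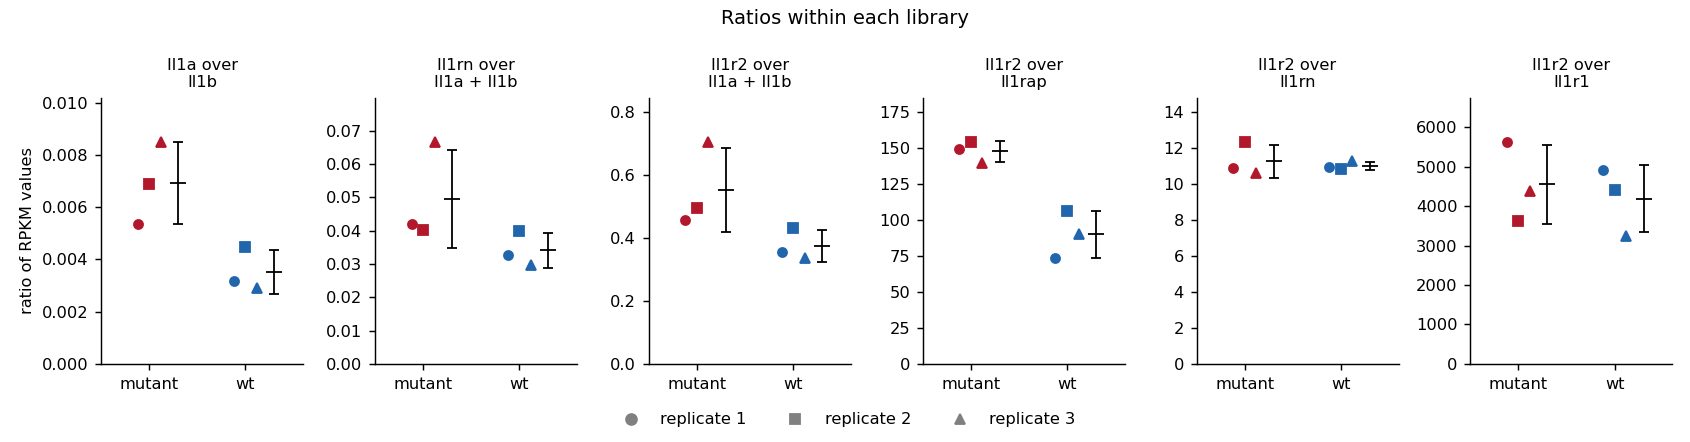
Ratios of RPKM values within each library for 3 mutant libraries (red, left) and 3 wt libraries (blue, right), with the mean and SD of each group. Il1r2 per Il1rap is at 139.6 to 154 in mutants and at 73.8 to 106 in wt, whereas Il1r2 per Il1rn is at 10.6 to 12.3 in mutants and at 10.8 to 11.2 in wt.

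Of 7 other ligands and antagonists of the family 3 were tested, and 0 passed in each direction. Il36rn (Il1f5 in the table), the antagonist of the interleukin 36 receptor, and Il1f10 had 0 counts in every library. Il36g (Il1f9 in the table), an agonist of the interleukin 36 receptor, was at 657, 612 and 599.9 CPM in mutant libraries and 632, 672 and 607 CPM in wt libraries, a log2 fold change of -0.03 ± 0.09 (SE, adjusted p = 0.995 by edgeR). Il18bp, which encodes the soluble binding protein of interleukin 18, averaged 28.8 ± 6.83 CPM in mutants and 38.1 ± 3.94 CPM in wt, but the overlapping gene Numa1 on the other strand had 377% of its CPM. Il33, an alarmin of structural cells, averaged 3.65 ± 1.62 CPM in mutants and 2.60 ± 0.996 CPM in wt (n = 3, SD).

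Of the other receptors of the family 5 of 6 were tested, and 0 passed in each direction. Il18rap, the accessory chain of the interleukin 18 receptor, averaged 273 ± 13.5 CPM in mutants and 308 ± 12.9 CPM in wt (n = 3, SD), with all mutant libraries below all wt libraries and an adjusted p of 0.815 by edgeR. It was the 1 of the 5 with groups apart on the lower side, with 0 on the higher side, against 6.21% and 6.82% of all tested genes. Its partner Il18r1 was scarcer and averaged 10.8 ± 1.43 CPM in mutants and 9.48 ± 5.53 CPM in wt. Il1rl1, the receptor for interleukin 33, and Il1rl2, the receptor for interleukin 36, had overlapping groups, with Il1rl1 averaging 5.44 CPM in mutants and 4.07 CPM in wt, and Il1rl2 averaging 6.05 CPM in mutants and 3.87 CPM in wt.

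Receptor-proximal signalling genes had 15 of 15 tested, 7 with a positive and 8 with a negative log2 fold change, a median of -0.002 and 0 past the threshold in each direction. Tab1, which activates the kinase TAK1, averaged 14.2 ± 3.72 CPM in mutants and 9.34 ± 2.20 CPM in wt (n = 3, SD), with an unadjusted p of 0.050 and an adjusted p of 0.740 by edgeR. The kinase gene Irak4 averaged 80.0 ± 23.6 CPM in mutants and 103 ± 10.7 CPM in wt, and Twf1, which overlaps it on the other strand, had 39.0% of its CPM. Irak2, another kinase of the receptor complex, averaged 219 ± 25.4 CPM in mutants and 190 ± 11.3 CPM in wt, and Tab3, a partner of TAK1, 7.59 ± 0.497 CPM in mutants and 9.64 ± 0.530 CPM in wt. Every mutant library was below every wt library for 2 of the 15, Tab3 among them, and above for 0. Over all tested genes these shares were 6.21% and 6.82%.

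Other inflammasome sensors and regulators had 14 of 16 tested, and 0 passed in each direction. The log2 fold change was positive for 3 and negative for 11, against 50.7% and 49.3% of all tested genes. Its median was -0.18, against 0.01 over all tested genes. At an unadjusted p under 0.05 edgeR had 0 higher and 1 lower, against 3.51% and 3.22% of all tested genes. The 1 lower gene was Txnip, which encodes a thioredoxin-binding protein that can associate with NLRP3. Txnip was at 470.1, 374 and 458 CPM in mutant libraries and 642, 470.1 and 547 CPM in wt libraries, so that mutant replicate 1 and wt replicate 2 met in the middle (log2 fold change -0.35 ± 0.13, SE, adjusted p = 0.636 by edgeR). The pyrin gene Mefv averaged 147 ± 17.0 CPM in mutants and 173 ± 7.80 CPM in wt, with all mutant libraries below all wt libraries and an adjusted p of 0.791. Nlrp1a, another sensor gene, also did not overlap (22.5 ± 3.38 CPM in mutants and 26.4 ± 1.32 CPM in wt). Groups were thus apart for 2 of the 14 on the lower side and 0 on the higher side. Over all tested genes 6.21% were apart on the lower and 6.82% on the higher side. P2rx7, the ATP-gated channel upstream of NLRP3, averaged 9.07 ± 1.82 CPM in mutants and 11.3 ± 0.810 CPM in wt. The summed CPM of the list was 1467 to 1500 in mutant libraries and 1638 to 1723 in wt libraries. Of these sums Txnip gave 434 CPM on average in mutants and 553 CPM in wt. Nlrp12 gave 314 CPM in mutants and 361 CPM in wt, and both genes had overlapping groups.

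Inflammatory caspases and release genes had 9 of 11 tested, 6 with a positive and 3 with a negative log2 fold change, a median of 0.07 and 0 past the threshold in each direction. Ninj1, which ruptures the plasma membrane in lytic cell death, averaged 719.6 ± 109.7 CPM in mutants and 621 ± 70.1 CPM in wt (n = 3, SD). The channel gene Panx1 averaged 3.64 ± 1.54 CPM in mutants and 5.51 ± 2.08 CPM in wt, and the protease gene Capn1, whose product can cut the interleukin 1 alpha precursor, 22.1 ± 4.20 CPM in mutants and 19.3 ± 2.70 CPM in wt. Prtn3, a granule protease gene, was low at 0.276, 4.17 and 0.369 CPM in mutant libraries and 0.328, 0.727 and 0.156 CPM in wt libraries, where 1 mutant library made the mean, and Plppr3 on the other strand had 279.5% of its CPM. Elane had 0 counts in every library.

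Genes that interleukin 1 is known to induce in many cell types had 16 of 16 tested, 8 in each direction, a median log2 fold change of 0.01 and 0 past the threshold. At an unadjusted p under 0.05 edgeR had 2 higher and 0 lower, against 3.51% and 3.22% of all tested genes. Icam1, an adhesion molecule, was at 247, 224 and 309.7 CPM in mutant libraries and 186, 170.1 and 194 CPM in wt libraries, a log2 fold change of 0.50 ± 0.13 (SE, adjusted p = 0.370 by edgeR) with groups apart. The chemokine gene Ccl3 averaged 48.9 ± 13.3 CPM in mutants and 31.2 ± 10.5 CPM in wt (adjusted p = 0.690, groups apart). Tnf averaged 52.9 ± 14.8 CPM in mutants and 39.3 ± 10.3 CPM in wt, and the prostaglandin synthase gene Ptgs2 6009 ± 1049 CPM in mutants and 5248 ± 380.0 CPM in wt, both with overlapping groups. Nfkbia, which encodes an inhibitor of NF-kB, was lower in every mutant library than in any wt library and averaged 2935 ± 59.3 CPM in mutants, against 3148 ± 238 CPM in wt (adjusted p = 0.917 by edgeR). Groups were apart for 2 of the 16 on the higher side and 1 on the lower side, against 6.82% and 6.21% of all tested genes.

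**Figure D5:**
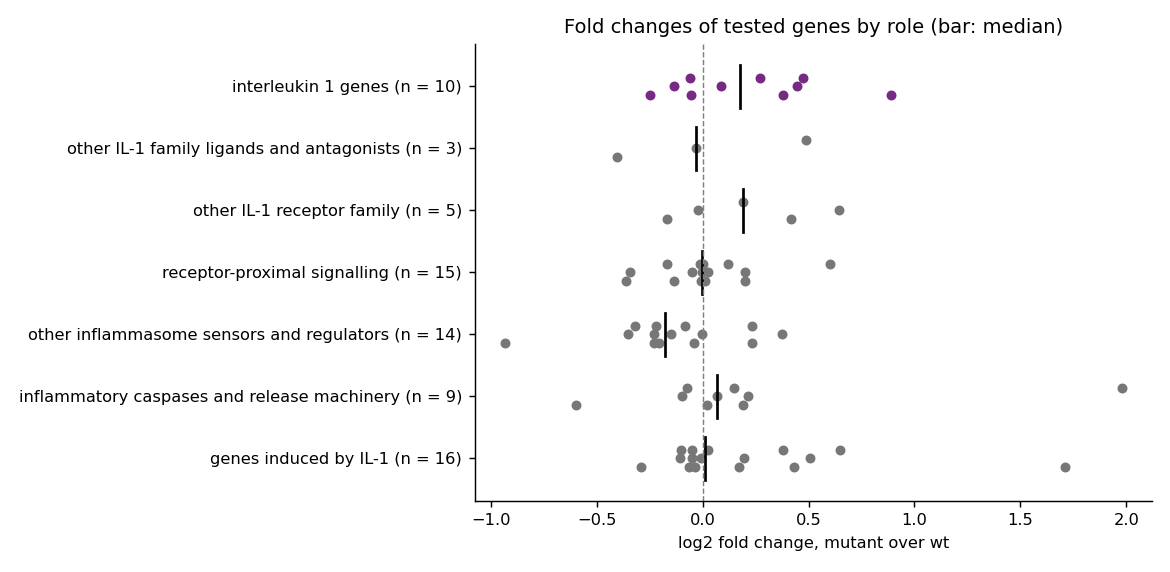
Log2 fold change of mutant over wt for every tested gene of the 10 interleukin 1 genes (purple) and 6 lists of related genes (grey), 1 point per gene, with a bar at the median of each list. The medians run from -0.18 for other inflammasome sensors and regulators to 0.19 for other receptors of the family.

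The profiles nearest to 3 of the members over the 6 libraries were sought among 6684 other named genes that averaged 10 CPM or more, by the root mean square difference of centred log2 CPM. Nearest to Il1a were Dot1l (0.129), Olr1 (0.134) and Spon2 (0.146), against a deviation of Il1a from its own mean of 0.503. Il1b was nearest to Nbeal2 (0.036), Cpsf7 (0.037) and Rnf144a (0.039), and Il1r2 to the pseudogene Eif4a-ps4 (0.041), Rabgef1 (0.0501) and Plek (0.060). With 6 libraries and this many candidates, a near profile is a description of these libraries.

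Markers of other lung cells were summed by cell type in each library. In bulk samples fewer cells of a type and less RNA per cell cannot be told apart. The summed CPM of 10 alveolar macrophage markers was 931 to 1621 in mutant libraries and 694 to 902 in wt libraries, of which Chil3, also made by neutrophils, gave 631 CPM on average in mutants and 248 CPM in wt. Without Chil3 the sum of the other 9 overlapped between groups, at 558 to 646 CPM in mutants and 532 to 598 CPM in wt. Of that sum Abcg1 gave 345 CPM on average in mutants and 354 CPM in wt. Chil3, Plet1 and Pparg, 3 of the 10, were higher in every mutant library than in any wt library, against 6.82% of all tested genes. The log2 fold change was positive for 9 of the 10 and negative for 1, against 50.7% and 49.3% of all tested genes. For 8 fibroblast markers the sum was 482 to 777 CPM in mutant libraries and 371 to 449 CPM in wt libraries. For 10 epithelial markers it was 413, 509 and 764 CPM in mutant libraries and 255, 452 and 215.5 CPM in wt libraries. Wt replicate 2, the highest wt library for Il1a, Il1rn and Il1r2, was the highest wt library for the epithelial sum, the lowest for the fibroblast and endothelial sums and between the others for the alveolar macrophage sum. At an unadjusted p under 0.05 edgeR had 6 of 10 epithelial, 4 of 8 fibroblast and 3 of 10 alveolar macrophage markers higher, and 0 lower. The same rule took 3.51% of all tested genes as higher and 3.22% as lower, and 0 of these markers passed the adjusted threshold. Of 8 endothelial markers the sum was 1156 to 1437 CPM in mutants and 1294 to 1605 CPM in wt. Their log2 fold change was positive for 0 and negative for 8, against 50.7% and 49.3% of all tested genes. None of the 8 had groups apart or an unadjusted p under 0.05 by edgeR. Sums of 8 monocyte and interstitial macrophage markers were 730.5 to 809 CPM in mutants and 810.4 to 843 CPM in wt. Csf1r gave 580 CPM of these on average in mutants and 648 CPM in wt, and no other marker of this list had groups apart. The log2 fold change was positive for 4 of the 8 and negative for 4.

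In the lists of macrophage, fibroblast, epithelial, endothelial and monocyte markers, 0 markers were without counts in all libraries. Sums of 8 dendritic cell markers were 164 to 240.4 CPM in mutants and 206 to 253 CPM in wt, and those of 8 B and plasma cell markers 456 to 478 CPM in mutants and 297 to 496 CPM in wt. For 8 T and NK cell markers they were 17.7 to 19.4 CPM in mutants and 13.4 to 26.1 CPM in wt. For 8 eosinophil, basophil and mast cell markers they were 46.2 to 63.9 CPM in mutants and 53.3 to 84.6 CPM in wt, with Epx and Fcer1a at 0 counts in every library. Among 8 neutrophil markers 7 had a negative log2 fold change, against 49.3% of all tested genes. The sums of the 8 were 16313 to 21545 CPM in mutants and 19206 to 20768 CPM in wt. At an unadjusted p under 0.05 edgeR had 0 of the 8 higher and 2 lower, against 3.51% and 3.22% of all tested genes, and 0 passed the adjusted threshold. Cxcr2, a chemokine receptor gene, was at 1991, 2136 and 1946 CPM in mutant libraries and 2623, 2475 and 2605 CPM in wt libraries (log2 fold change -0.34 ± 0.08, SE, adjusted p = 0.294 by edgeR). S100a8, which encodes a calprotectin subunit, was at 966, 1507 and 973 CPM in mutant libraries and 1687, 1752 and 1688 CPM in wt libraries (log2 fold change -0.57 ± 0.16, SE, adjusted p = 0.405 by edgeR). The groups were apart for both genes. The part of these markers in the values of Il1a, Il1rn, Il1r2 and the low genes Il1r1 and Il18 was not tested.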

How the data were processed

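The authors deposited raw whole-number counts of reads for each gene in 6 libraries. STAR, featureCounts and GRCm38 are named per the submitters' processing notes, with no versions, annotation release or strand setting. Per the labels' protocols, cDNA was made with SMART-Seq v2, a full-length method for polyadenylated RNA that marks no strand; reads carry no molecular identifiers, so PCR copies are counted. Per the file headers, Length is the summed exon length of a gene. Identifiers were given GENCODE M21 symbols, 55094 exactly, 300 without their version (Casp1 among them), and 93 had none. Of 55487 genes, 15774 passed edgeR's filterByExpr (minimum count 10) and held 99.9% of the counts.

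Libraries were scaled by TMM and compared, unpaired, by the quasi-likelihood test of edgeR 4.0.16 in R 4.3.3; p-values were adjusted over all tested genes by Benjamini and Hochberg's method, with a threshold of 5%. Replicate numbers follow accession order and pair nothing. Standard errors are the log2 fold change over the square root of F. DESeq2 1.42.0 and limma-voom (limma 3.58.1) were alternatives. Total counts per library, 30403494 to 35906780, limit the precision of genes with few reads.

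The 10 genes and all lists were chosen with earlier results of these data known. Named genes are the 10, Tgfbr2, up to 4 genes with the smallest p of each list and the 3 nearest profiles of Il1a, Il1b and Il1r2. Markers, overlapping genes, Elane, Il36rn, Il1f10, Nlrp12 and Nfkbia were named after their values were seen. Promoter sequences are from RefSeq (GRCm38.p6), which held all 10 genes.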

Additional observations from a re-analysis of the deposited data

How the results depend on the processing

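In all 12 alternatives the 10 genes had 0 calls on the lower side. On the higher side, where edgeR with the default filter called 0, DESeq2 called 2, edgeR with no filter on low counts 2 and edgeR on genes averaging 10 CPM or more 1, while the fits with 1 library left out each called 0. Why these settings differ was not tested. Over all genes, edgeR called 1 higher and 0 lower, limma-voom 1 and 0, and DESeq2 89 and 79. EdgeR without the filter called 41 and 29, and edgeR from 10 CPM upwards 14 and 4. Leaving out 1 library gave 0 to 1 higher and 0 to 1 lower. The single call on the higher side was lost without mutant replicate 1, wt replicate 1 or wt replicate 3, and the call on the lower side appeared without mutant replicate 2. Signs turned for 3 of the 10 genes with 1 library left out: Il1b (-0.14 to 0.068 on the log2 scale, positive without mutant replicate 3), Il18 (-0.25 to 0.19, positive without wt replicate 2) and Nlrp3 (-0.0017 to 0.14, negative without mutant replicate 2). The other 7 kept their sign in every alternative that tested them. Il18, Il1r1 and Pycard have under 10 CPM and no value in the alternative that starts there, and their 100 to 362 counts per library limit what can be separated. No paired analysis was possible because the labels give no replicate numbers that tie a mutant to a wt library.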
